A study of Mus musculus with 13 samples.

Results

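Expression of 38 interferon-stimulated genes was examined in 3 sorted populations of mouse splenic CD4 T cells. The genes were chosen by symbol: each is induced by type I interferon in many cell types, and the guanylate binding proteins were not included. Earlier results of these data were known when they were chosen. All 38 were found among the 18649 genes of the table, and all 38 passed the filter on low values that left 14177 genes for testing.

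The PD1hi population (3 libraries) held CD4+ T cells with high surface PD-1, an inhibitory receptor, and without the GFP reporter of Foxp3. Regulatory T cells (Treg, 5 libraries) were CD4+, PD-1 negative and GFP(Foxp3) positive, and conventional T cells (Tconv, 5 libraries) were CD4+ and negative for both. The titles place the libraries in experiments 3, 5 and 6, which each contain all populations, and 4 of the 13 libraries are titled as a replicate beside another one of their experiment and population. All groups carry the Foxp3 reporter as far as the labels describe it, no treatment is named, and the sources used here do not give strain, age, sex or the number of mice behind a library. Where 5 library values are listed for Treg they are in the order of experiments 3, 3, 5, 6 and 6, for Tconv 3, 5, 5, 6 and 6, and the 3 PD1hi values are in the order 3, 5 and 6.

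Type I interferons bind the receptor made of IFNAR1 and IFNAR2, whose kinases JAK1 and TYK2 activate STAT proteins. Together with IRF9 these form the complex ISGF3, which binds the interferon-stimulated response element (ISRE) in front of its target genes, and the products of these genes sense foreign nucleic acid, block viral replication or dampen the signal. In T cells this pathway is known to affect survival and differentiation.

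Promoter sequences of 5 members are shown because these genes hold the same element in front of the start site and show different patterns across the populations. Ifit3 and Ifit1 were lower in PD1hi cells, Oas1a was higher in PD1hi and Treg cells, and Isg15 and Rsad2 passed the test in no comparison. Each line gives the 250 bases before the RefSeq start site in GRCm38.p6, 5′ to 3′ on the strand of the gene, and capitals mark matches on either strand to the ISRE core (GAAA, any 2 bases, GAAA). In Isg15 and Oas1a the matches overlap.
Ifit3, chr19:34583279-34583528 (plus strand): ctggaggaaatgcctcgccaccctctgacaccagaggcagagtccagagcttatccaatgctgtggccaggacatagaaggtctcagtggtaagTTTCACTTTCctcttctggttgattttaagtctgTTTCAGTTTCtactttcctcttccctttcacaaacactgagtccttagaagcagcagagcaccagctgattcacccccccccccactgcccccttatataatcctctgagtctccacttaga
Ifit1, chr19:34640639-34640888 (plus strand): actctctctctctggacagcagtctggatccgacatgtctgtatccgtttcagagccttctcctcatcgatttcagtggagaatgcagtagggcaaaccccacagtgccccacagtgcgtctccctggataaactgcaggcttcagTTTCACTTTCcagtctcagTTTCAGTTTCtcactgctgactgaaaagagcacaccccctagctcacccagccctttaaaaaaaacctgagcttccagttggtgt
Oas1a, chr5:120907526-120907775 (minus strand): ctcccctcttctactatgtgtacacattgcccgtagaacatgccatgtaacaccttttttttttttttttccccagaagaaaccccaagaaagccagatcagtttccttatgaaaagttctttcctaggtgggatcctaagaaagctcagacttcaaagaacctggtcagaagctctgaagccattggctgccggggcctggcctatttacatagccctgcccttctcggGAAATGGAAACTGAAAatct
Isg15, chr4:156200819-156201068 (minus strand): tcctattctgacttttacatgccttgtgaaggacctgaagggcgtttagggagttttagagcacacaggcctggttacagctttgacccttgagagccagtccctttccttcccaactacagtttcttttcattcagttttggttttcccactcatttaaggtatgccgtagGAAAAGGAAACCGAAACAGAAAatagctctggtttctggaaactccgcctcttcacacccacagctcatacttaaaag
Rsad2, chr12:26456453-26456702 (minus strand): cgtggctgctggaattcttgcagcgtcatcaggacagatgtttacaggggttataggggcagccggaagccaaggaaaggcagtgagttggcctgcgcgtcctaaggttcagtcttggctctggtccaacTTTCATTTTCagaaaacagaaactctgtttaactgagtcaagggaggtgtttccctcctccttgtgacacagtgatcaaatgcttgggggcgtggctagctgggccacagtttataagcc
Counted from the start site, the first bases of the matches were at -156 and -122 in Ifit3, at -104 and -85 in Ifit1, at -20 and -14 in Oas1a, at -78, -72 and -66 in Isg15 and at -120 in Rsad2.

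A RefSeq window of 300 bases (250 before and 50 after the start site) was found for 29 of the 38 members. The ISRE core was present on either strand in 12 of these 29 (41.4%), beside 3.99% of 27025 genes and 3.44% of all 32851 windows. The other members with a match were Bst2, Ddx58, Eif2ak2, Ifih1, Oas3, Stat2 and Trim21. The gamma-activated site TTCNNNGAA was present in 7 of the 29 (24.1%), beside 9.55% of genes and 8.3% of windows. In PD1hi against Tconv, 5 of the 12 members with an ISRE core fell and 1 rose, and 11 of the 17 members whose window held none fell and 0 rose, where 11.9% of all tested genes were lower and 14.2% higher (limma, adjusted p under 0.05). In PD1hi against Treg these counts were 4 and 0 of 12 and 10 and 1 of 17, beside 8.39% and 8.16%, and in Treg against Tconv 1 and 2 of 12 and 4 and 1 of 17, beside 5.66% and 8.73%. The difference between members with and without the core was not tested. A match is a description of letters in this window and not of binding.

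Libraries held 15971126 to 24216463 reads in genes. The sort genes followed the labels: Pdcd1, which encodes PD-1, averaged 37372 ± 3290.1 (mean ± SD, n = 3 values, as for all means given) in PD1hi, 1955 ± 38.5 in Treg and 1132 ± 136 in Tconv, and Foxp3 averaged 106 ± 33.4, 15889 ± 513 and 291 ± 35.8. Summed markers of plasmacytoid dendritic cells, a main source of type I interferon, ranged from 1107 to 1575 in PD1hi, 553 to 1240 in Treg and 496.8 to 847.4 in Tconv. Of 4 such genes 2 were tested and 1 rose in PD1hi against Tconv, beside 14.2% of all tested genes. Most of this sum was Pacsin1, while Siglech, a defining marker, was at 0 in 6 of the 13 libraries and at 69.3 in the highest, Tconv of experiment 3, and Klk1 was at 0 in Treg. Summed CD8 T and NK cell markers ranged from 561 to 743.6 in PD1hi, 360.2 to 589.4 in Treg and 1917 to 2025 in Tconv, mostly Klrb1c. Against Tconv, 2 of 5 tested genes of this list were lower in PD1hi and 3 of 5 in Treg. Of all tested genes 11.9% and 5.66% were lower. Summed B cell markers ranged from 205.1 to 363.8 in PD1hi, 638.6 to 932.3 in Treg and 111.1 to 203.5 in Tconv. Plasma cell markers ranged from 2445 to 5139, 2993 to 5769 and 1315 to 2164 in the same order, and myeloid markers from 546.6 to 931.7, 454.2 to 1105 and 582.6 to 1363. In PD1hi and in Treg, 1 of 4 tested B cell genes and 1 of 3 plasma cell genes rose against Tconv. Of all tested genes 14.2% and 8.73% rose. Of 6 tested myeloid genes 1 (Itgam) fell in PD1hi and 0 in Treg against Tconv. The part of these cells in the results was not tested. Because the labels name no separate mice behind the libraries of a group, the p-values gauge variation from sample to sample, part of which may be technical.

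The first question was how interferon response genes differ between PD1hi cells and Tconv. Most of those that passed the test were lower in PD1hi: 20 of 38 fell, 2 rose and 16 did not pass the test (limma, adjusted p under 0.05). The steepest falls were in Oas2, Oasl1, Ifit3, Usp18, Ifi44 and Ifit2, with differences of -1.88 to -5.46 on the log2(scaled count + 1) scale used throughout, and Oas1a and Mx1 rose. Among all tested genes 26.1% passed this test, 11.9% as lower and 14.2% as higher. The members' median difference was -0.531, beside -0.000378 over all tested genes. All 3 PD1hi values (1 per experiment) lay below all 3 Tconv values for 28 members, a pattern found in 19.4% of tested genes, and above them for 3 members, beside 20.5%. In bulk samples, fewer cells that express a gene and less of its RNA in each cell cannot be told apart.

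In Treg cells against Tconv the same genes went in both directions. Lower in Treg were 6 members (Oas2, Oasl2, Oasl1, Irf7, Ddx58 and Lgals3bp), higher were 3 (Eif2ak2, Oas1a and Isg20), and 29 did not pass the test. Of all tested genes 14.4% passed, 5.66% as lower and 8.73% as higher. The median difference of the members was -0.0252, beside 0.00612 for all tested genes. Values did not overlap for 14 members that were lower, beside 16.4% of tested genes, and for 5 that were higher, beside 17.9%.

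PD1hi cells were also compared with Treg cells, which gave 19 members lower, 2 higher (Oasl2 and Mx1) and 17 not past the test. Usp18, Ifi44, Oas2, Ifit3, Ifit2 and Oasl1 fell the most, with differences of -1.39 to -2.29. Of all tested genes 16.5% passed, 8.39% as lower and 8.16% as higher. The members' median was -0.508, beside -0.00877 for all tested genes. The values did not overlap for 23 lower and 3 higher members, each beside 15.2% of tested genes. The 3 comparisons share libraries pairwise, so their counts are not independent of each other.

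**Figure D1:**
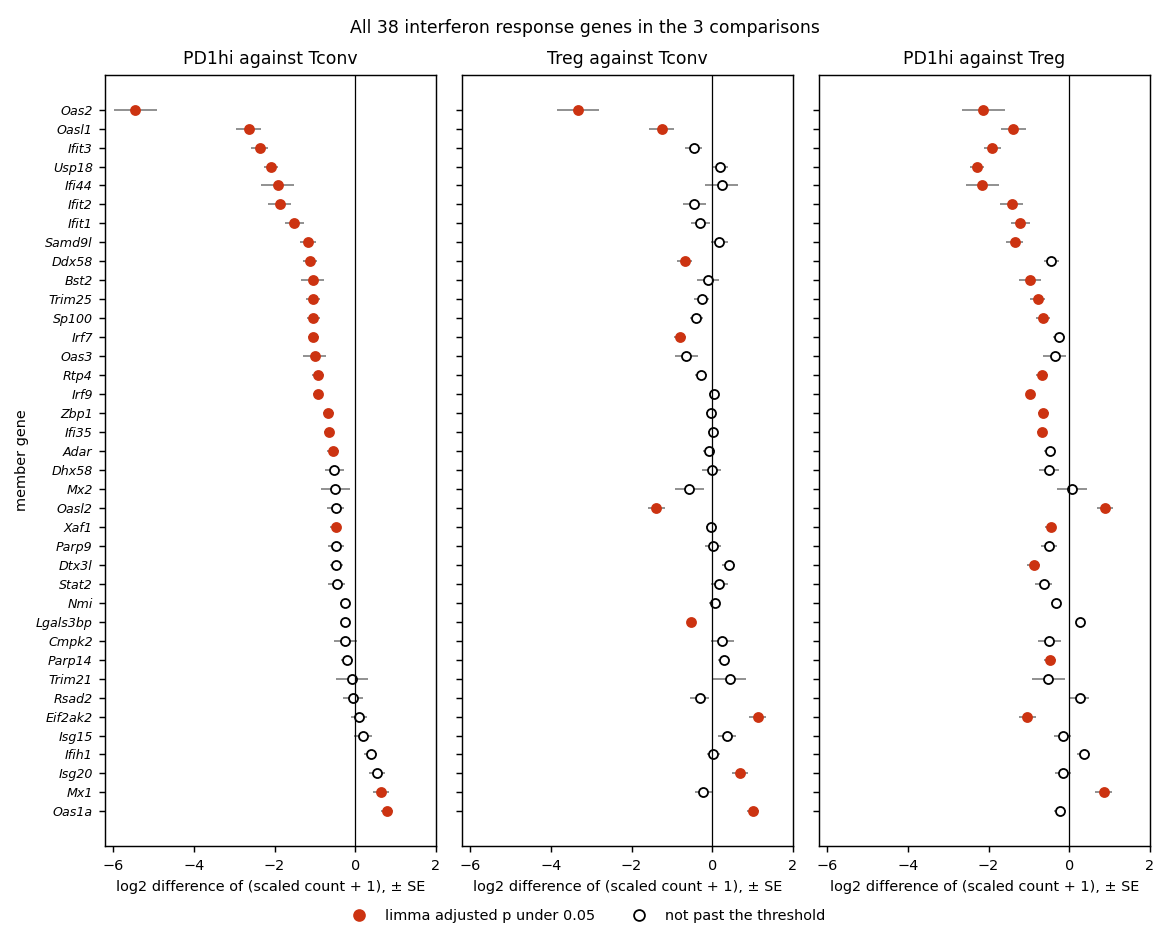
Log2 difference of (scaled count + 1) ± SE for each of the 38 genes (rows) in the 3 comparisons (panels, one shared axis), sorted by PD1hi against Tconv. Filled points passed limma's adjusted p of 0.05: 22 in the left panel, 20 of them below 0, 9 in the middle panel and 21 in the right panel.

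The IFIT proteins bind foreign RNA and hinder its translation. All 3 IFIT members fell in PD1hi cells against Tconv and against Treg, beside 11.9% and 8.39% of all tested genes. None passed the test between Treg and Tconv, where 14.4% of all tested genes did. Ifit3 (ENSMUSG00000074896) was at 156, 188 and 107 in the PD1hi libraries, 661, 544, 578, 489.8 and 477 in the Treg libraries and 756, 723, 719.9, 794 and 807 in the Tconv libraries. The 3 populations did not overlap, with PD1hi lowest and Tconv highest. Ifit3 fell by 2.37 ± 0.21 in PD1hi against Tconv (adjusted p = 8.3e-06), which is 5.16-fold, and by 1.91 ± 0.21 against Treg (adjusted p = 6.38e-05), while Treg against Tconv gave -0.46 ± 0.21 (adjusted p = 0.213).

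Ifit2 (ENSMUSG00000045932) was at 777, 935 and 357 in PD1hi, 1836, 1164, 1811, 1939.7 and 1804 in Treg and 2572, 2034, 1911, 2398 and 2656 in Tconv. Each PD1hi library was below each of the others, the Treg and Tconv libraries overlapped, and the second Treg library of experiment 3 stood below the other 4. Ifit2 fell by 1.88 ± 0.29 against Tconv (adjusted p = 0.000476) and by 1.43 ± 0.29 against Treg (adjusted p = 0.00445). Ifit1 had means of 571 ± 215 in PD1hi, 1259 ± 15.1 in Treg and 1552 ± 148 in Tconv, and fell by 1.51 ± 0.24 and 1.21 ± 0.24 in the same comparisons. The 3 genes neighbour each other in the genome, and Ifit1 and Ifit3 have close copies beside them, so reads of these genes may be split between copies in a way the table does not show.

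ISG15 is a ubiquitin-like protein that is attached to other proteins, and USP18 removes it and also blocks signalling at the type I receptor. Of the pair, Usp18 alone passed the test. Usp18 (ENSMUSG00000030107) was at 565, 516 and 337 in PD1hi, 2378, 2049, 2283, 2265 and 2301 in Treg and 1896, 1917, 1866, 2195 and 2034 in Tconv. All PD1hi libraries lay far below the others, and Treg and Tconv overlapped. Usp18 fell by 2.09 ± 0.18 against Tconv (adjusted p = 6.23e-06, 4.25-fold) and by 2.29 ± 0.18 against Treg (adjusted p = 4.01e-06, 4.89-fold). Isg15, whose promoter holds 3 overlapping ISRE cores, was at 457, 327 and 361 in PD1hi, 454, 543, 471, 288 and 359 in Treg and 347, 381, 349.8, 296 and 265 in Tconv. These overlapped in every pair of populations, and the differences were 0.20 ± 0.22 for PD1hi against Tconv, 0.36 ± 0.22 for Treg against Tconv and -0.16 ± 0.22 for PD1hi against Treg (adjusted p = 0.556, 0.35 and 0.694).

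Among the transcription factors and their partners, 3 of 5 fell in PD1hi against Tconv (Irf7, Irf9 and Ifi35). In Treg against Tconv 1 fell (Irf7), and in PD1hi against Treg 2 fell (Irf9 and Ifi35). These were 60%, 20% and 40% of the list, beside 11.9%, 5.66% and 8.39% of all tested genes. Irf7 (ENSMUSG00000025498), the factor that amplifies interferon production, was at 1502, 1893 and 1692 in PD1hi, 2194, 1498, 2049, 2065 and 2194 in Treg and 3017, 3742, 3493, 3890.5 and 3790.3 in Tconv. Every Tconv library was above every PD1hi and Treg library, and PD1hi and Treg overlapped. Irf7 fell by 1.04 ± 0.14 in PD1hi (adjusted p = 0.00019) and by 0.79 ± 0.14 in Treg (adjusted p = 0.00249) against Tconv, and PD1hi against Treg gave -0.25 ± 0.14 (adjusted p = 0.296).

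IRF9, the DNA-binding subunit of ISGF3, showed another order. Irf9 had means of 2683 ± 118 in PD1hi, 5225 ± 363 in Treg and 5074 ± 449 in Tconv, and fell in PD1hi by 0.92 ± 0.12 against Tconv and 0.96 ± 0.12 against Treg (adjusted p = 0.000146 and 0.00015). Ifi35, which binds NMI, fell by 0.64 ± 0.12 and 0.67 ± 0.12 in the same comparisons. Stat2 (ENSMUSG00000040033), the partner of IRF9 in ISGF3, was at 1663, 2047 and 1184 in PD1hi, 2606, 1199.5, 2746, 2914 and 2843 in Treg and 2107, 2615, 2148, 2194 and 1933 in Tconv. PD1hi overlapped with Tconv, and with Treg through the second Treg library of experiment 3, the lowest of its population. Stat2 differences were -0.45 ± 0.21 for PD1hi against Tconv and -0.63 ± 0.21 for PD1hi against Treg (adjusted p = 0.14 and 0.0618), and without that library the adjusted p of the latter was 0.00916. Nmi (ENSMUSG00000026946), which binds STAT proteins, was at 1884, 1681 and 1975 in PD1hi, 2452, 2508, 2174, 2140.1 and 2379 in Treg and 2328, 2139, 1993, 2351 and 2127 in Tconv. The PD1hi libraries of Nmi lay just below the rest without overlap, at -0.26 ± 0.13 against Tconv and -0.32 ± 0.13 against Treg (adjusted p = 0.158 and 0.117).

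The oligoadenylate synthetases make a messenger that activates an RNA-cleaving enzyme when they meet double-stranded RNA, and Oas1a, Oas2 and Oas3 are neighbours in the genome. These neighbours differed in direction. Oas2 (ENSMUSG00000032690) was at 19.5, 5.05 and 5.44 in PD1hi, 50.6, 41.4, 20.7, 65.6 and 62.5 in Treg and 324, 399, 375, 449.9 and 620.0 in Tconv. The 3 populations did not overlap, and all PD1hi libraries together held 29 reads of Oas2, beside 258 in Treg and 2164 in Tconv. Oas2 fell by 5.46 ± 0.53 in PD1hi (adjusted p = 1.3e-05) and by 3.33 ± 0.53 in Treg (adjusted p = 0.00104) against Tconv, the steepest fall of any member in either comparison, which is 43.9-fold and 10.1-fold. It also fell by 2.13 ± 0.53 in PD1hi against Treg (adjusted p = 0.0154). That last call was lost without Treg of experiment 3 (adjusted p = 0.0589) or of experiment 6 (0.0747), without PD1hi of experiment 5 (0.058), and in a fit of these 2 populations alone (0.0663).

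Oas1a (ENSMUSG00000052776) was at 933, 837 and 878 in PD1hi, 1166, 934, 1034, 997 and 1036 in Treg and 432, 576, 589, 565 and 488 in Tconv. Here Tconv was the lowest, and the highest PD1hi library was just below the lowest Treg library. Oas1a rose by 0.79 ± 0.15 in PD1hi (adjusted p = 0.00208) and by 1.02 ± 0.15 in Treg (adjusted p = 0.000669), the reverse of Oas2. PD1hi against Treg gave -0.23 ± 0.15 (adjusted p = 0.37). Oas1a belongs to a family of close copies, so its reads may be split or shared with them. Oas3 had means of 779 ± 343, 930.0 ± 134 and 1448 ± 96.7 in PD1hi, Treg and Tconv and fell 2-fold in PD1hi against Tconv (adjusted p = 0.0218). In Treg, the second library of experiment 3 was at 496.7 beside 978.1 to 1060 in the others. The Oas3 call was lost without Tconv of experiment 3 (adjusted p = 0.0674) or 5 (0.0616) and in a fit of these 2 populations alone (0.0507).

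OASL1 and OASL2 are related proteins, encoded by neighbouring genes, of which OASL1 is known to limit translation of Irf7 messenger RNA. Oasl1 (ENSMUSG00000041827) was at 48.2, 27.3 and 31.5 in PD1hi, 108, 126, 64.9, 130.2 and 78.7 in Treg and 214, 260.3, 199, 265 and 179 in Tconv. The populations were separate, in the same order as for Oas2. Oasl1 fell by 2.65 ± 0.31 in PD1hi against Tconv (adjusted p = 5.97e-05), by 1.39 ± 0.31 in PD1hi against Treg (adjusted p = 0.00826) and by 1.25 ± 0.31 in Treg against Tconv (adjusted p = 0.0172). The call in Treg against Tconv was lost without Treg of experiment 5 (adjusted p = 0.071) and without Tconv of experiment 3 (0.0556), 5 (0.0629) or 6 (0.0652).

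Oasl2 (ENSMUSG00000029561) was at 447, 406 and 283 in PD1hi, 244, 138, 222, 199 and 174 in Treg and 555, 532, 517, 487 and 487 in Tconv. Again no libraries overlapped, but Treg cells were the lowest and PD1hi cells lay between. Oasl2 fell by 1.38 ± 0.20 in Treg against Tconv (adjusted p = 0.000635), rose by 0.90 ± 0.20 in PD1hi against Treg (adjusted p = 0.00921) and differed by -0.49 ± 0.20 in PD1hi against Tconv (adjusted p = 0.104). Isg20 (ENSMUSG00000039236), an exonuclease, was at 731, 678 and 847 in PD1hi, 1037, 1215, 683, 715 and 776 in Treg and 522, 557, 593, 541 and 354 in Tconv. Every Tconv library was below every library of PD1hi and Treg, and the highest were the 2 Treg libraries of experiment 3. Isg20 rose by 0.70 ± 0.20 in Treg against Tconv (adjusted p = 0.0388), and PD1hi against Tconv gave 0.55 ± 0.20 (adjusted p = 0.0693). The call in Treg was lost without Treg of experiment 3 (adjusted p = 0.139) or 6 (0.061) and without Tconv of experiment 3 (0.102), 5 (0.0549) or 6 (0.157).

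**Figure D2:**
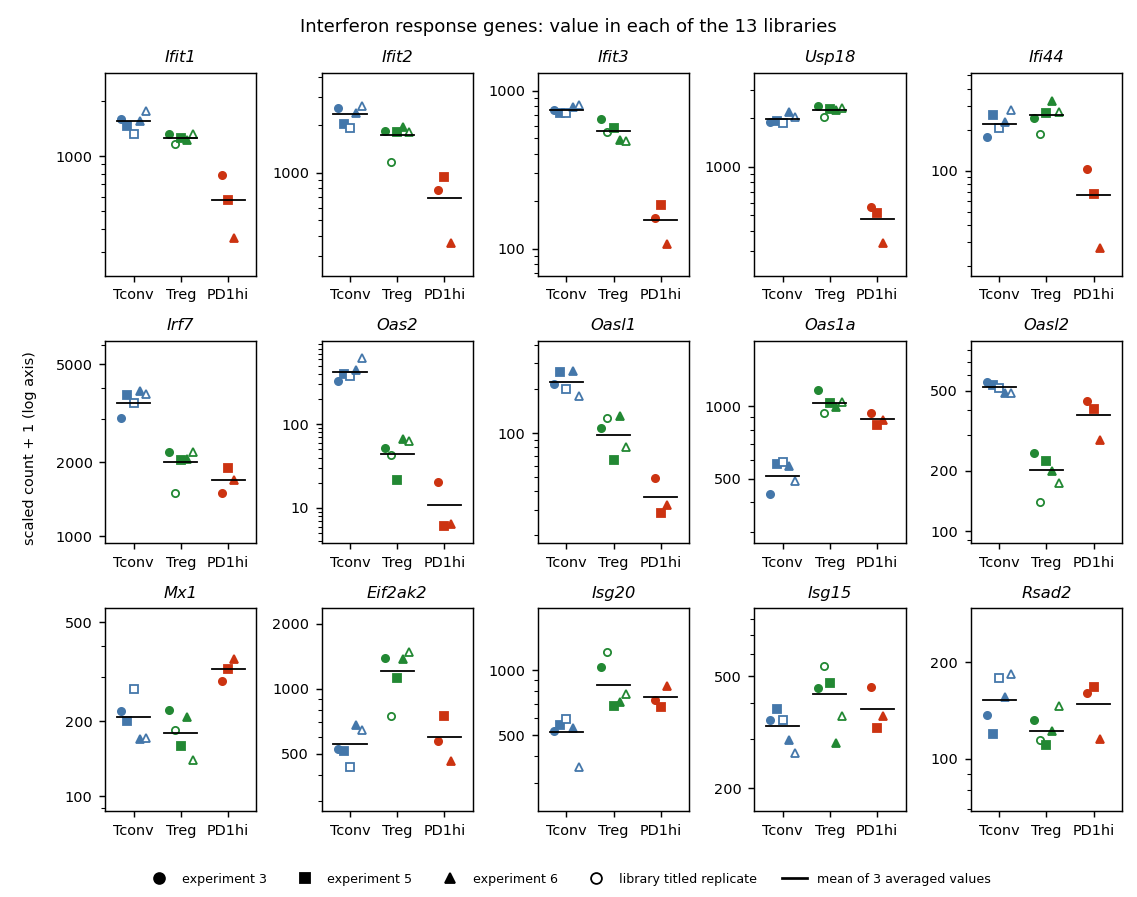
Scaled count + 1 (log axis, own range in each panel) of 15 members in each of the 13 libraries, by population. Symbols give the experiment, open symbols the libraries titled replicate, and lines the mean of the 3 averaged values. PD1hi libraries of Ifit1, Ifit2, Ifit3, Usp18 and Ifi44 lie below all others, while Mx1 is higher in PD1hi and Oas1a lower in Tconv.

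The Mx proteins are GTPases that trap viral components. Mx1 (ENSMUSG00000000386) was at 289, 323 and 353 in PD1hi, 221, 183, 159, 207 and 139 in Treg and 219.5, 199, 268, 169 and 171 in Tconv. All PD1hi libraries were above all others, and Treg and Tconv overlapped. Mx1 rose by 0.85 ± 0.21 in PD1hi against Treg (adjusted p = 0.0139), or adjusted p = 0.0512 without Treg of experiment 5. It rose by 0.64 ± 0.21 in PD1hi against Tconv (adjusted p = 0.0405), a call lost in 9 of 18 alternatives. Among these were the fits without Tconv of experiment 3 (adjusted p = 0.079), 5 (0.0502) or 6 (0.176), without PD1hi of experiment 5 (0.0912) or 6 (0.0842) and without Treg of experiment 6 (0.058). Mx2, the neighbour of Mx1, was low, with means of 57.8 ± 13.9, 57.9 ± 25.6 and 80.3 ± 2.36 in PD1hi, Treg and Tconv, and passed the test in no comparison.

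Of 6 sensors of nucleic acid and enzymes that act on double-stranded RNA, 3 fell in PD1hi against Tconv (Ddx58, Zbp1 and Adar). That is 50% of the list, beside 11.9% of all tested genes. Ddx58, which encodes the RNA sensor RIG-I, had means of 1972 ± 423 in PD1hi, 2660.3 ± 449.6 in Treg and 4242 ± 535 in Tconv. It fell by 1.12 ± 0.18 in PD1hi (adjusted p = 0.000723) and by 0.68 ± 0.18 in Treg (adjusted p = 0.0271) against Tconv. The Treg call was lost without the second Treg library of experiment 3 (adjusted p = 0.0602), without all Treg of experiment 3 (0.0914) or 5 (0.118), and without Tconv of experiment 3 (0.0806) or 6 (0.121). Zbp1, a sensor of Z-form nucleic acid, fell in PD1hi by 0.67 ± 0.13 against Tconv and 0.64 ± 0.13 against Treg (adjusted p = 0.00254 and 0.00495), and its PD1hi libraries were close together at 1086, 1097 and 1129.6. Adar, which edits double-stranded RNA, fell by 0.55 ± 0.15 in PD1hi against Tconv (adjusted p = 0.0175), a call lost without Tconv of experiment 3 (adjusted p = 0.0794) or 6 (0.0666) and with all 13 libraries kept apart (0.109). Adar and Eif2ak2 each overlap another gene of the table in RefSeq, and the sources used here do not say whether counting used strand.

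Eif2ak2 (ENSMUSG00000024079), which encodes PKR, a kinase that halts translation, was at 574, 749.7 and 462 in PD1hi, 1395, 750.4, 1124, 1374 and 1476 in Treg and 523, 512, 433, 679.6 and 645 in Tconv. Every Treg library was above every PD1hi and Tconv library, the second of experiment 3 by little, and PD1hi and Tconv overlapped. Eif2ak2 rose by 1.13 ± 0.21 in Treg against Tconv (adjusted p = 0.00297), fell by 1.04 ± 0.21 in PD1hi against Treg (adjusted p = 0.00429) and differed by 0.09 ± 0.21 between PD1hi and Tconv (adjusted p = 0.789). Ifih1 (ENSMUSG00000026896), which encodes the RNA sensor MDA5, was at 2009, 1884 and 1319 in PD1hi, 1366, 1111, 1309, 1572 and 1352 in Treg and 1278, 1299, 1257, 1366 and 1382 in Tconv. The PD1hi libraries of experiments 3 and 5 were above all others and that of experiment 6 was among them. Ifih1 gave 0.38 ± 0.17 for PD1hi against Tconv (adjusted p = 0.117) and 0.36 ± 0.17 against Treg (0.188). Without PD1hi of experiment 6 these adjusted p were 0.00577 and 0.011, both higher in PD1hi. Dhx58, which encodes the regulator LGP2, gave -0.52 ± 0.24, -0.02 ± 0.24 and -0.50 ± 0.24 in PD1hi against Tconv, Treg against Tconv and PD1hi against Treg.

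Of the 9 other effectors, 6 fell in PD1hi against Tconv and 6 against Treg, in both cases Ifi44, Samd9l, Bst2, Sp100, Rtp4 and Xaf1. That is 66.7% each time, beside 11.9% and 8.39% of all tested genes. Ifi44 (ENSMUSG00000028037), an antiviral protein, was at 101, 66.7 and 26.1 in PD1hi, 241, 184, 262, 323 and 271 in Treg and 176, 256, 205, 226 and 276 in Tconv. PD1hi libraries were below the rest and the furthest apart as a ratio, with experiment 6 lowest. Ifi44 fell by 1.93 ± 0.41 against Tconv (adjusted p = 0.00384) and by 2.16 ± 0.41 against Treg (adjusted p = 0.00271). Within experiments 3, 5 and 6 the difference from Tconv was -0.79, -1.77 and -3.22.

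Samd9l, which restricts translation of viral messages, had means of 2440.3 ± 623 in PD1hi, 6157 ± 1133 in Treg and 5422 ± 907 in Tconv and fell by 1.17 ± 0.21 against Tconv and 1.35 ± 0.21 against Treg (adjusted p = 0.00123 and 0.000648). Sp100, a nuclear body protein, fell by 1.04 ± 0.16 and 0.65 ± 0.16 (adjusted p = 0.000541 and 0.0168), and the latter call was lost without Treg of experiment 6 (adjusted p = 0.0735). Rtp4, a receptor transporter with antiviral activity, fell by 0.93 ± 0.15 and 0.67 ± 0.15. Its differences within experiments were nearly the same, -0.94, -0.88 and -0.98 against Tconv. Bst2, or tetherin, which holds budding virus at the cell surface, was at 289, 366 and 629 in PD1hi, where experiment 6 was the highest, and in Treg experiment 5 stood out at 1050 beside 611.1 to 733.5 in the others. Bst2 fell by 1.06 ± 0.28 against Tconv (adjusted p = 0.0132), lost without Tconv of experiment 5 (adjusted p = 0.0536), and by 0.96 ± 0.28 against Treg (adjusted p = 0.0319). The latter call was lost without PD1hi of experiment 3 (adjusted p = 0.105) or 5 (0.095), without Treg of experiment 3 (0.0667) or 5 (0.132), with equal library totals (0.0663) and in a fit of these 2 populations alone (0.0651).

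Xaf1, whose product is linked to cell death, fell by 0.49 ± 0.14 in PD1hi against Tconv (adjusted p = 0.0233) and by 0.46 ± 0.14 against Treg (adjusted p = 0.0426), close to the threshold. The Xaf1 call against Tconv was lost in 6 alternatives, among them the fits without PD1hi of experiment 3 (adjusted p = 0.067) or 5 (0.0599) and without Tconv of experiment 3 (0.0647), 5 (0.0532) or 6 (0.0966). Its call against Treg was lost in 11 of 18 alternatives (adjusted p = 0.052 to 0.115), and held in only 1 of the 9 fits that left out a value, that without PD1hi of experiment 6. Lgals3bp, a secreted glycoprotein, was at 2683, 2666 and 2609 in PD1hi and had means of 2197 ± 36.3 in Treg and 3143 ± 62.5 in Tconv. It fell by 0.52 ± 0.11 in Treg against Tconv (adjusted p = 0.00697), with PD1hi between the other populations at -0.24 ± 0.11 from Tconv. Rsad2, or viperin, which makes a chain-terminating nucleotide, and its neighbour Cmpk2, a nucleotide kinase, passed the test nowhere. Rsad2 was at 159.9, 167 and 114 in PD1hi, 131, 113, 109, 121 and 146 in Treg and 136, 119, 178, 155 and 183 in Tconv. All 3 populations of Rsad2 overlapped, with differences of -0.06 ± 0.24 for PD1hi against Tconv and 0.26 ± 0.24 against Treg.

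Among ubiquitin ligases and ADP-ribosyl transferases, Trim25, the ligase that activates RIG-I, fell in PD1hi by 1.05 ± 0.18 against Tconv and 0.78 ± 0.18 against Treg (adjusted p = 0.00119 and 0.0114). Dtx3l and Parp14 fell in PD1hi against Treg only as far as these tests go, by 0.88 ± 0.16 and 0.48 ± 0.15 (adjusted p = 0.00229 and 0.0434). The Parp14 call was lost in 9 of 18 alternatives, among them the fits without Treg of experiment 3 (adjusted p = 0.0879) or 6 (0.19), without PD1hi of experiment 3 (0.102), 5 (0.0588) or 6 (0.0616) and without Tconv of experiment 3 (0.0691) or 6 (0.0618). Dtx3l against Tconv gave -0.47 ± 0.16 (adjusted p = 0.0508), just short of the threshold. It passed as lower in 7 of 18 alternatives (adjusted p = 0.0179 to 0.0482), among them the fit with experiment as a block (0.026).

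Parp9 (ENSMUSG00000022906), the partner of DTX3L, was at 2761, 2609 and 1516 in PD1hi, 3689.5, 2320.1, 2968, 3560.0 and 3292 in Treg and 3098, 3012, 2779, 3319.8 and 3285 in Tconv. PD1hi libraries were below Tconv without overlap, by little in experiments 3 and 5, and overlapped with Treg through the second library of experiment 3. Parp9 gave -0.48 ± 0.20 against Tconv and -0.49 ± 0.20 against Treg (adjusted p = 0.104 and 0.128), and within experiments 3, 5 and 6 the difference from Tconv was -0.17, -0.15 and -1.12. Parp9 and Dtx3l overlap in RefSeq, so reads of the pair may not be told apart. Trim21, a cytosolic antibody receptor, was at 75.8, 58.6 and 189 in PD1hi, with experiment 6 above the others, and gave -0.08 ± 0.41 against Tconv.

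In all, 10 of the 38 members passed the test in no comparison: Isg15, Stat2, Nmi, Mx2, Ifih1, Dhx58, Rsad2, Cmpk2, Trim21 and Parp9. Of these, 9 had a mean of at least 100 in each population, Mx2 being the exception. A difference that missed the threshold does not show that the populations were alike.

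The median fall in PD1hi was largest in experiment 6, which rests on 1 PD1hi library, and this difference between experiments was not tested. The median difference of the 38 members between PD1hi and Tconv was -0.562, -0.546 and -0.792 in experiments 3, 5 and 6, between PD1hi and Treg -0.503, -0.481 and -0.845, and between Treg and Tconv -0.133, 0.0326 and 0.0222. The sign was negative in all 3 experiments for 29 members in PD1hi against Tconv, beside 27.7% of tested genes, for 27 in PD1hi against Treg, beside 22.6%, and for 14 in Treg against Tconv, beside 27.7%. With the fewest reads of all, PD1hi of experiment 6 held the lowest PD1hi value for 23 of 38 members, beside 42.8% of all tested genes. The library titled replicate of Treg in experiment 3, which had the most reads, was below its pair for 29 of 38 members, beside 53.5% of tested genes. Chi-square per degree of freedom was 73.5 for that pair and 7.77 to 9.05 for the other 3 pairs, where sampling noise alone gives 1. Between experiments, PD1hi of experiment 6 gave 66.2 and 59.51 against PD1hi of experiments 3 and 5. Those 2 gave 22.32 with each other, and Tconv pairs gave 15.43 to 36.54. With PD1hi of experiment 6 and that Treg library left out, 20 members were lower and 2 higher in PD1hi against Tconv. In PD1hi against Treg 21 were lower and 3 higher, and in Treg against Tconv 7 were lower and 4 higher. Over all tested genes the number called rose as well in this fit, from 3700 to 4025, from 2346 to 2637 and from 2039 to 2820 in the same order.

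**Figure D3:**
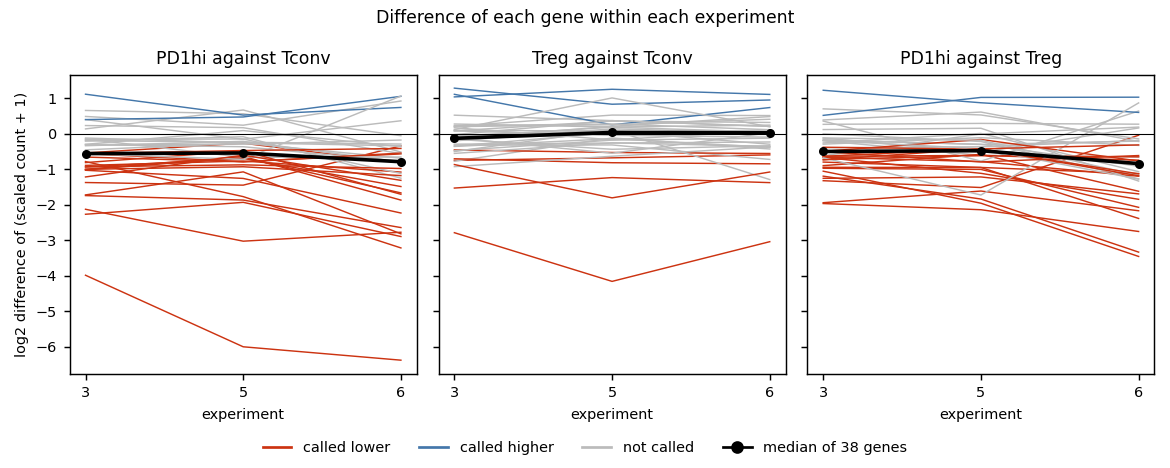
Log2 difference of (scaled count + 1) of each of the 38 genes (thin lines) within experiments 3, 5 and 6, for the 3 comparisons. Red and blue lines are genes called lower and higher, grey lines the rest, and the black line the median, which is below 0 in each experiment for PD1hi against Tconv and against Treg and within 0.133 of 0 for Treg against Tconv.

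Genes that make, receive and transmit the signal were compared next. Of 18 listed interferon ligand genes only Ifng, the type II interferon, was found by symbol among the 18649 genes. The listed type I ligand genes could therefore not be compared. Ifng was at 1949, 1934 and 1388 in PD1hi, 141, 222, 60.2, 105 and 107 in Treg and 555, 872, 849, 417 and 425 in Tconv. The populations did not overlap, with PD1hi highest. Ifng rose by 1.57 ± 0.36 in PD1hi against Tconv and by 4.03 ± 0.36 against Treg (adjusted p = 0.00675 and 1.03e-05), and fell by 2.47 ± 0.36 in Treg against Tconv (adjusted p = 0.00062).

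Of 8 receptor and kinase genes, 4 fell and 1 rose in PD1hi against Tconv and against Treg, and 2 rose and 0 fell in Treg against Tconv. These were 62.5%, 62.5% and 25% of the list, beside 26.1%, 16.5% and 14.4% of all tested genes. With experiment as a block, or without Tconv of experiment 5, 2 rose in PD1hi against Tconv. In Treg against Tconv 4 rose with the block, and 1 fell without PD1hi of experiment 6. Ifnar1, a chain of the type I receptor, was at 1750.5, 2484 and 1751 in PD1hi, 4217, 2972, 4953, 4479.7 and 4574 in Treg and 2929, 3343, 3426, 3051 and 3074 in Tconv. PD1hi libraries were below all others. Ifnar1 fell by 0.66 ± 0.17 against Tconv and by 1.13 ± 0.17 against Treg (adjusted p = 0.0122 and 0.000549), and Treg against Tconv gave 0.47 ± 0.17 (adjusted p = 0.0977, or 0.031 with experiment as a block). The other chain, Ifnar2, gave 0.48 ± 0.20 for PD1hi and 0.56 ± 0.20 for Treg against Tconv (adjusted p = 0.109 and 0.0989, or 0.047 and 0.0405 with the block).

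Jak1, a kinase of both interferon receptors, fell by 0.53 ± 0.17 in PD1hi against Tconv (adjusted p = 0.0361), a call lost in 8 alternatives, among them without PD1hi of experiment 3 (adjusted p = 0.0656) or 6 (0.0745), Treg of experiment 5 (0.0534), and Tconv of experiment 3 (0.114), 5 (0.0592) or 6 (0.103). Tyk2 gave 0.12 ± 0.20, 0.19 ± 0.20 and -0.07 ± 0.20 in PD1hi against Tconv, Treg against Tconv and PD1hi against Treg. Jak2, a kinase of the interferon gamma receptor, rose by 1.46 ± 0.23 in PD1hi against Tconv and 1.45 ± 0.23 against Treg.

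Both chains of the interferon gamma receptor were far lower in PD1hi cells, the population with the most Ifng. Ifngr1 was at 875, 1138 and 598 in PD1hi, 16142, 13352, 19362, 15561 and 16041 in Treg and 4796, 4837, 5431, 4070.5 and 4276 in Tconv. The populations did not overlap. Ifngr1 fell by 2.48 ± 0.21 in PD1hi against Tconv and 4.29 ± 0.21 against Treg (adjusted p = 4.95e-06 and 8.21e-08) and rose by 1.82 ± 0.21 in Treg against Tconv (adjusted p = 9.88e-05). Ifngr2 had means of 173 ± 50.8, 928 ± 68.3 and 1320.0 ± 19.3 in PD1hi, Treg and Tconv and fell in PD1hi by 2.97 ± 0.20 and 2.46 ± 0.20. Il10rb, a chain shared with the type III interferon receptor, rose by 0.74 ± 0.13 in Treg against Tconv and fell by 0.66 ± 0.13 in PD1hi against Treg.

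**Figure D4:**
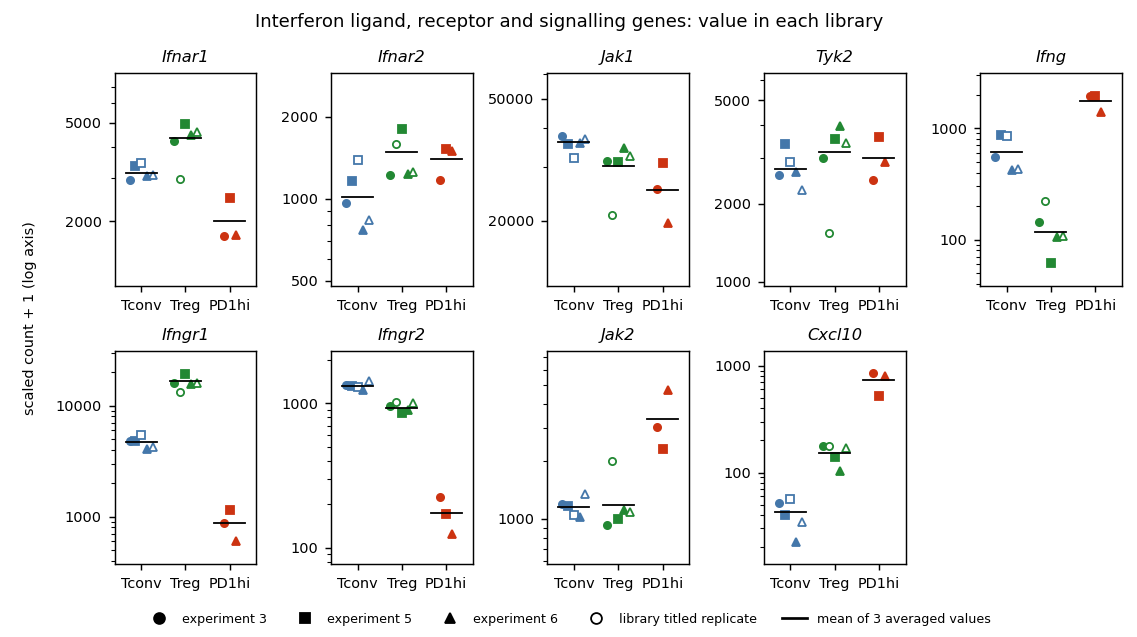
Scaled count + 1 (log axis, own range in each panel) of 8 ligand, receptor and signalling genes and of Cxcl10 in each of the 13 libraries, drawn as for the members. PD1hi libraries are the highest for Ifng, Jak2 and Cxcl10 and the lowest for Ifnar1, Ifngr1 and Ifngr2.

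Inhibitors and other regulators had no common direction. Of 8 inhibitors, 2 fell and 0 rose in PD1hi against Tconv, and 1 rose and 1 fell in each of the other comparisons. That is 25% called each time. Of all tested genes 26.1% were called in PD1hi against Tconv, 14.4% in Treg against Tconv and 16.5% in PD1hi against Treg. Without PD1hi of experiment 3, 1 rose in PD1hi against Tconv, and with experiment as a block 2 fell in PD1hi against Treg. Cish, a feedback inhibitor of cytokine receptors, averaged 331 ± 129 in PD1hi cells, 3837 ± 457 in Treg and 900.3 ± 186 in Tconv, a rise of 2.10 ± 0.24 in Treg and a fall of 1.49 ± 0.24 in PD1hi against Tconv. Ptpn6, the phosphatase SHP-1, fell by 0.83 ± 0.13 in Treg against Tconv. Pias1, a SUMO ligase, fell by 0.56 ± 0.15 in PD1hi against Tconv (adjusted p = 0.0162), a call lost, with 1 inhibitor then lower, without Tconv of experiment 3 (adjusted p = 0.0571) or 6 (0.0712). Of 6 other interferon regulatory factors, 2 rose and 2 fell in PD1hi and 3 rose in Treg against Tconv, and 3 fell in PD1hi against Treg. These were 66.7%, 50% and 50% of the list, beside the same 26.1%, 14.4% and 16.5% of all tested genes. Irf4, a factor of effector T cells, rose by 2.03 ± 0.18 in PD1hi and 1.74 ± 0.18 in Treg, and Irf5 rose by 0.99 ± 0.16 and 1.44 ± 0.16. Irf1, which activates many interferon gamma targets, fell in PD1hi by 0.62 ± 0.11 against Tconv and 0.82 ± 0.11 against Treg. Irf8 rose by 1.69 ± 0.22 in Treg against Tconv, and PD1hi against Tconv gave 0.58 ± 0.22 (adjusted p = 0.0794, or 0.0238 with experiment as a block).

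A list of 12 tested genes covered nucleic acid sensing and interferon production. Not all of its genes lead to interferon, Aim2 and Samhd1 being among them. Of the 12, 4 fell and 3 rose in PD1hi against Tconv. In Treg against Tconv 2 fell and 3 rose, and in PD1hi against Treg 2 fell and 0 rose. These were 58.3%, 41.7% and 16.7% of the list, beside 26.1%, 14.4% and 16.5% of all tested genes. In PD1hi against Treg the list was thus near the share of all genes. Without Tconv of experiment 3, 1 rose in PD1hi against Tconv. In Treg against Tconv 1 rose without Tconv of experiment 3 or 5 or Treg of experiment 5 or 6, and 1 fell without Treg of experiment 3 or 6 or Tconv of experiment 3 or 5. With no filter on low values, 1 rose in PD1hi against Treg. Tlr7, a receptor of single-stranded RNA, averaged 16.4 ± 12.1 in PD1hi cells, 392 ± 58.7 in Treg and 157 ± 38.9 in Tconv. It fell by 3.36 ± 0.41 in PD1hi against Tconv and by 4.69 ± 0.41 against Treg. Tlr7 was not called in Treg against Tconv in the main fit. It passed as higher in Treg in several alternatives, among them pseudocount 10 (limma, adjusted p = 0.0156), a minimum mean of 50 (0.0475) and equal library totals (0.0359). Samhd1, which degrades nucleotides, rose by 1.29 ± 0.11 in Treg and fell by 0.61 ± 0.11 in PD1hi against Tconv. Ikbke, a kinase of IRF3 and IRF7, fell by 0.79 ± 0.14 in PD1hi and 0.75 ± 0.14 in Treg against Tconv.

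Of 34 further genes induced by type I interferon, 11 fell and 6 rose in PD1hi against Tconv, with a median of -0.363. In Treg against Tconv 4 fell and 5 rose (median -0.0472), and in PD1hi against Treg 9 fell and 3 rose (median -0.278). Over these 3 comparisons 32.4%, 11.8% and 26.5% of the list fell, beside 11.9%, 5.66% and 8.39% of all tested genes. The shares that rose were 17.6%, 14.7% and 8.82%, beside 14.2%, 8.73% and 8.16%. Medians of all tested genes were -0.000378, 0.00612 and -0.00877. In Treg against Tconv 3 rose without Treg of experiment 3 or 5 or Tconv of experiment 3 or 6, and in PD1hi against Treg 1 rose without Treg of experiment 6. Ube2l6, the enzyme that conjugates ISG15, rose by 1.84 ± 0.20 in PD1hi and 2.05 ± 0.20 in Treg against Tconv, from 309 ± 91.7 to 1075 ± 73.4 and 1244 ± 41.4. Ifi204, a sensor of DNA, rose by 2.65 ± 0.37 in PD1hi and fell by 1.87 ± 0.37 in Treg, to 6.16 ± 1.65. Slfn8 fell by 1.45 ± 0.20 in PD1hi against Tconv and 1.69 ± 0.20 against Treg.

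A further 16 tested genes were listed as induced by interferon gamma, a list that is not specific to this interferon. Of these, 6 fell and 1 rose in PD1hi against Tconv (median -0.19). In PD1hi against Treg 8 fell and 1 rose (median -0.7), and in Treg against Tconv 0 fell and 5 rose (median 0.491). In this order 37.5%, 50% and 0% of the list fell, beside 11.9%, 8.39% and 5.66% of all tested genes. The shares that rose were 6.25%, 6.25% and 31.2%, beside 14.2%, 8.16% and 8.73%. Without PD1hi of experiment 6, 2 rose in PD1hi against Tconv, and with the second Treg library of experiment 3 also left out 9 rose in Treg against Tconv. The number called in either direction over all tested genes rose as well in these fits, from 3700 to 3833 and from 2039 to 2820. The immunity-related GTPase genes Tgtp1 and Irgm2 fell in PD1hi by 2.22 ± 0.17 and 1.51 ± 0.23 against Tconv. Iigp1, of the same family, rose by 1.76 ± 0.25 in Treg against Tconv and fell by 2.23 ± 0.25 in PD1hi against Treg. Cxcl10, a chemokine of the same list, was the only one to rise in PD1hi, at 855, 522 and 803 in PD1hi, 175, 176, 137, 103 and 170.3 in Treg and 51.2, 38.6, 55.5, 21.3 and 33.4 in Tconv. Its libraries did not overlap between populations, and it rose by 4.10 ± 0.29 against Tconv and 2.25 ± 0.29 against Treg (adjusted p = 1.46e-06 and 0.000185).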

How the data were processed

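RNA-seq of sorted splenic CD4 T cells was analysed in 13 libraries. Per the labels' protocols, RNA was taken up in Trizol, depleted of ribosomal RNA and made into Ion Torrent libraries from 100 ng. Tools named are HTSeq 0.5.4, Picard and limma, per the submitters' processing notes, which also list mm9, hg19 and GRCh37 as builds without a role. The sources used here do not give the aligner, the annotation or the strand setting. The authors deposited 1 table whose signal values are read counts divided by size factors, with 1 added, and that 1 was subtracted here.

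Libraries of the same population and experiment were averaged (9 values, 3 per population), since the labels do not say how they are related. No pair agreed within sampling noise. A mean scaled count of at least 10 was required, and genes were tested with limma 3.58.1 in R 4.3.3 (trend, 2-sided, all 3 populations in 1 fit) on log2(scaled count + 1), which understates the change of low genes, with Benjamini-Hochberg adjustment over 14177 genes and a threshold of 0.05. The script was tested on simulated data. Promoters came from RefSeq (GRCm38.p6) and were searched on both strands.

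Members and lists were chosen with earlier results of these data known. Library values are given for the 6 called members of each comparison with the largest difference and no overlap, for called members against the majority, for the 4 most abundant of those called nowhere with a mean of at least 100 in each population, and, beyond this rule and after their values were seen, for Isg15 and Rsad2 and single populations of Zbp1, Bst2, Lgals3bp and Trim21. From each other list up to 4 called genes per comparison were eligible, besides Ifnar1, Ifnar2, Jak1, Tyk2 and Ifng, and 1 gene of the receptor and kinase list is not reported here. The pairing comes from the experiment number in the titles. Deviations of populations of the same experiment from their group means had correlations of -0.07 to 0.298 across genes, and of different experiments -0.274 to 0.125. The fit was repeated with experiment as a block, another pseudocount (10), no filter, a higher filter (50), equal library totals, all 13 libraries with duplicateCorrelation, 2 populations only, without the second Treg library of experiment 3 and leaving out each of the 9 values. The fit without both libraries that stand apart was added after seeing the data.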

Additional observations from a re-analysis of the deposited data

Results flagged for a closer look

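Among the 38 members, 76 groups of 5 libraries (Treg and Tconv) were examined for a library set apart from the other 4. A total of 6 groups held one, all of them in Treg, and chance alone gives about 1 in 20. The second Treg library of experiment 3 was low for Ifit2 (1164, others 1804 to 1940), Irf7 (1498, others 2049 to 2194), Stat2 (1200, others 2606 to 2914) and Oas3 (496.7, others 978.1 to 1060). The Treg library of experiment 5 was high for Bst2 (1050, others 611.1 to 733.5) and Cmpk2 (346.1, others 204.8 to 220.9).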

How the results depend on the processing

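Over 18 alternatives no call of a single member turned its direction. Of the members that fell, 16 of 20 in PD1hi against Tconv, 4 of 6 in Treg against Tconv and 14 of 19 in PD1hi against Treg passed the threshold in every alternative, and of those that rose 1 of 2, 2 of 3 and 1 of 2. Among 114 single results of the members, 14 lost their call in at least 1 alternative. Another 12, not called at first, gained one in at least 1 alternative. With experiment as a replicate block, 21 members fell and 2 rose in PD1hi against Tconv and 1 of 114 single results of the members changed its call, that of Dtx3l. Over all tested genes the number called rose with the block from 3700 to 3974 in this comparison. It rose from 2039 to 2204 in Treg against Tconv and from 2346 to 2579 in PD1hi against Treg. Among the other genes named, the block changed the calls given beside them and no others. The number of members higher in PD1hi against Tconv was 1 with no filter, 4 with equal library totals, 1 in a fit of these 2 populations alone and 1 to 3 when a value was left out. Over all genes of these fits 3873, 3748, 3307 and 2710 to 3833 were called in either direction. In PD1hi against Treg the number of members higher was 1 to 3 when a value was left out, with 1764 to 2579 of all tested genes called. Equal library totals moved the median of all genes by 0.142 in PD1hi against Tconv and the members' median to -0.386. The members' median in Treg against Tconv was near 0 and changed sign: it was 0.041 with equal totals, 0.00134 without the second Treg library of experiment 3, the same 0.00134 without both this library and PD1hi of experiment 6, and -0.0632 to 0.00235 when a value was left out. The cause of these changes was not tested. With 3 values per population, small differences may be missed. Where leaving out a value left 2 in a population, these were assumed to vary like the others.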

Other observations

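Beside Ifit1 and Ifit3, the table holds 2 further IFIT genes, which were picked after their values were seen. Gm14446, called Ifit1bl1 in RefSeq, where it overlaps Ifit1, was at 582, 806 and 284 in PD1hi, 5259, 3821, 5223, 5412 and 5737 in Treg and 3561, 3576, 3685, 4610.4 and 4339 in Tconv. All PD1hi libraries of Gm14446 were below all others, and it fell by 2.92 ± 0.29 against Tconv and 3.32 ± 0.29 against Treg (limma, adjusted p = 1.78e-05 and 9.22e-06). I830012O16Rik, called Ifit3b in RefSeq, had means of 38.7 ± 21.2 in PD1hi, 131 ± 24.0 in Treg and 218 ± 17.1 in Tconv, and fell by 2.65 ± 0.41 and 1.90 ± 0.41 in the same comparisons. How reads were divided between such copies and Ifit1 and Ifit3 was not tested.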
